A study of Mus musculus with 36 samples.

Results

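Enteric glial cells (EGCs) are the glia of the gut's own nervous system. They support neurons and the epithelium and respond to inflammatory signals with chemokines, cytokines and acute-phase proteins. In many cell types IL-1 acts mainly through NF-kB, interferons induce guanylate-binding proteins (GBPs) and antigen presentation, and dividing cells raise a shared set of DNA replication and mitosis genes. The comparison described here asks whether the effect of tumor microenvironment conditioned medium (TME-CM) on EGCs changed between 12 h and 24 h of stimulation. It is a difference of differences: the log2 ratio at 24 h between TME-CM and medium conditioned by healthy colon cells (H-CM), minus the same log2 ratio at 12 h, called the change of effect below. It uses 16 of the 36 libraries of the series, 4 in each of 4 groups, and was computed for 12702 of the 43472 genes listed, those with enough counts to test.

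The cultures were primary mouse EGCs of the WT genotype, grown from embryonic neurospheres and differentiated in vitro. They were stimulated with TME-CM or H-CM, made by culturing cells of orthotopic tumors or of healthy colons overnight, for 12 h or 24 h. RNA was sequenced from the 3′ end of the transcripts, and the deposited values are read counts per gene. The labels do not say whether the 4 replicates of a group are separate cultures, so p-values measure the spread between these libraries.

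The 16 libraries held 1608018 to 7552509 counts. One entry of the table, Yam1, took 13.7% to 35.1% of them, with shares over 30% in H-CM replicate 1 of 12 h and in TME-CM replicate 2 of both times. The spread between libraries was wider at 12 h than at 24 h, with a common dispersion (the squared coefficient of variation between libraries beyond counting error, from edgeR) of 0.127 at 12 h and 0.0414 at 24 h. Of the glial markers, Sox10 was at 59.3 to 84.7 CPM (counts scaled to a common library size, with TMM-scaled totals), S100b at 28.6 to 112 CPM and Gfap at 0 to 7.31 CPM, and none of these was called for a change of effect. The 6 glial markers summed to 194 to 284 CPM, the 5 immune markers to 12.2 to 79.4 CPM, epithelial markers to at most 2.80 CPM, and the 7 smooth muscle markers to between 1803 and 4845 CPM. The 4 neuron markers summed to 79.2 to 220 CPM. The 3 endothelial markers summed to 47.3 to 60.1 CPM with H-CM and 26.0 to 39.5 CPM with TME-CM at 12 h. At 24 h these endothelial sums were 33.4 to 67.4 and 11.2 to 26.9 CPM, without overlap at either time. Kdr was at 8.18 to 61.3 CPM, and Cdh5 and Pecam1 reached at most 6.94 and 7.93 CPM. The 4 mesenchymal markers summed to 866 to 1288 CPM with H-CM and 2092 to 2758 CPM with TME-CM at 12 h. At 24 h they summed to 1137 to 1387 and 2310 to 3287 CPM, so the media did not overlap at either time. Most of each sum was Dcn, at 753 to 3093 CPM, while Pdgfra, Lum and Wt1 reached at most 123, 146 and 12.6 CPM. Over 10 mesenchymal genes the median log2 ratio of TME-CM to H-CM was -0.16 at 12 h and 0.32 at 24 h. A count of 0 allows up to 0.397 to 1.87 CPM, depending on the library's unscaled total (3 counts, counting error only).

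Both H-CM replicate 1 libraries stood apart. At 12 h, Saa3 was at 758 CPM in this replicate and at 67.6 to 183 CPM in the other H-CM libraries, and at 24 h at 1739 against 213 to 378 CPM. TME-CM replicate 1 of both times was low for interferon-inducible genes, with Cxcl10 at 40.1 CPM at 12 h and 23.3 CPM at 24 h against 177 to 262 and 70.1 to 77.8 CPM in the other TME-CM libraries. H-CM replicate 3 of 12 h also stood apart, with the fewest genes detected (13128, against 13386 to 17174 in the other 15 libraries), the lowest mean correlation with its own group (0.86, against 0.903 to 0.926 in the other H-CM libraries of 12 h) and a mean log2 level (CPM + 2) of mitochondrially encoded transcripts of 10.34, against 9.38 to 9.49 in the other H-CM libraries of 12 h. For some of the values that rest on these libraries, the value without them is given as well.

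No gene passed the test for a change of effect. With edgeR's quasi-likelihood test and Benjamini-Hochberg adjustment, 0 of 12702 genes (0%) had an adjusted p under 0.05, and the smallest adjusted p was 0.999972. At an unadjusted p under 0.05 there were 358 genes (2.82%), 206 above 0 and 152 below. DESeq2's Wald test also called 0 genes, with 457 at an unadjusted p under 0.05, and limma voom called 0, with 373. The median change over all genes was 0.01 on the log2 scale, with 6552 genes above 0 and 6150 below.

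The 95% intervals state what size of change these libraries allow. They reached a median of 0.88 (log2) to either side of the estimate over all genes, 0.70 over the 8438 genes averaging 10 CPM or more and 0.52 over the 1641 genes averaging 100 CPM or more. For 4831 genes (38.0%) the whole interval lay within 1 of 0. A missing call does not show that the effects at both times were the same.

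Each time point gave calls in the fit of all 16 libraries, which pooled the spread of both times. At 12 h, 250 genes (1.97%) were higher and 165 (1.3%) lower with TME-CM than with H-CM, and at 24 h 192 (1.51%) were higher and 121 (0.953%) lower. Of these, 198 genes were called at both times, all with the same sign, 141 higher and 57 lower. A further 217 genes were called at 12 h and not at 24 h, and 115 at 24 h and not at 12 h. In 209 of the 217 and in 112 of the 115 the estimate at the other time had the same sign, and 45 and 19 of them had an unadjusted p under 0.05 for the change, so a call at one time only was not shown to be a change. With limma voom and library weights by time, 156 genes were called at 12 h and 830 at 24 h. Which time had more calls therefore depended on the method.

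**Figure D1:**
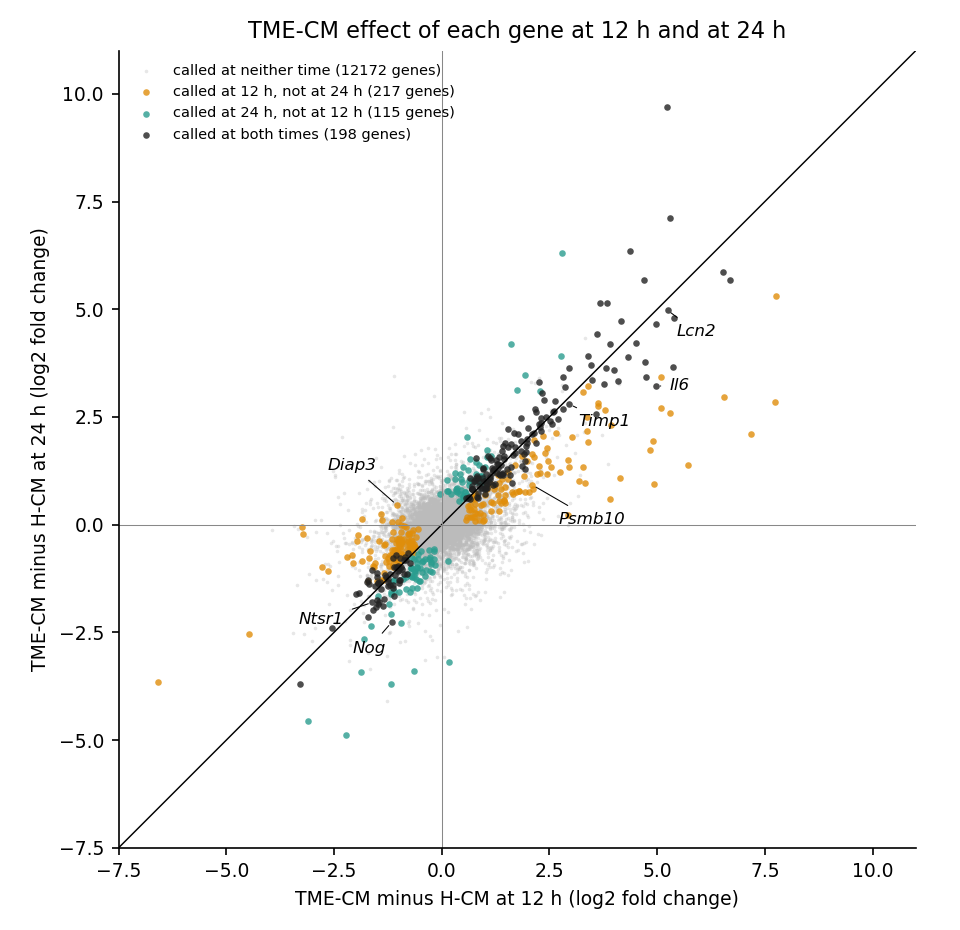
Each point is one of the 12702 genes, with its TME-CM effect (log2, against H-CM) at 12 h on the x axis and at 24 h on the y axis, and the line marks equal effects. All 198 genes called at both times (black) have the same sign at both, and the genes called at 12 h only (217, orange) or at 24 h only (115, teal) mostly do too.

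Across genes of at least 10 CPM, the effects at 12 h and 24 h had a Pearson r of 0.735, given as a description, since genes are not independent replicates (the 12 h and the 24 h effect share no library). The genes called higher at 12 h had a median effect of 1.65 at 12 h and 1.30 at 24 h, and those called higher at 24 h a median of 1.40 at 24 h and 1.30 at 12 h. Each set was chosen by its own time point, which favors large values at that time. Of the 198 genes called at both times, 97 had an interval of the change within 1 of 0, and 3 had an unadjusted p under 0.05 for the change.

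The 6 genes called at both times with the narrowest intervals (averaging 50 CPM or more) show how tightly a change could be bounded. Ext1, an enzyme of heparan sulfate synthesis, was at 138, 145, 142 and 175 CPM with H-CM and 213, 226, 229.5 and 250.1 CPM with TME-CM at 12 h. At 24 h Ext1 was at 133, 139, 145 and 155 CPM with H-CM and 228, 229, 217 and 206 CPM with TME-CM. The 4 TME-CM libraries lay above the 4 H-CM libraries at both times, and the change of effect was 0.01 ± 0.19 (SE, 95% interval -0.39 to 0.41). The effects at 12 h and 24 h were 0.94 and 0.85 for Cyp1b1, a cytochrome P450 enzyme, 0.84 and 0.62 for Zfp36l1, an RNA-binding protein that promotes mRNA decay, 1.01 and 0.71 for the adhesion molecule Clmp, and 0.70 and 0.84 for the growth factor Pdgfa. Phlda1 had a change of -0.19 ± 0.20. The interval of the change was -0.72 to 0.13 for Clmp and -0.30 to 0.57 for Pdgfa.

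Of 10 genes chosen by name, 8 are named by the study, and Saa3 and Chil1 were added. All were called at both times apart from Sparcl1, beside 198 of all 12702 genes, and none passed the test for a change. The study named its 8 genes from these same data, and Saa3 and Chil1 were added with results known. Their calls are therefore a description and not independent evidence. Lcn2, which encodes the iron-scavenging protein lipocalin 2 (chr2:32384633-32388252 in GRCm38), was at 43.8, 10.01, 7.63 and 5.72 CPM with H-CM and 605, 627, 510.4 and 701 CPM with TME-CM at 12 h. At 24 h Lcn2 was at 95.4, 20.1, 11.03 and 8.28 CPM with H-CM and 936, 1194, 1064 and 1134 CPM with TME-CM. All TME-CM libraries lay above all H-CM libraries at both times, and replicate 1 was the highest H-CM library at each. The effect was 5.24 ± 0.82 (SE) at 12 h and 4.98 ± 0.80 at 24 h, and its change was -0.27 (95% interval -2.43 to 1.89, unadjusted p = 0.793). Without both H-CM replicate 1 libraries the effects were 6.30 and 6.30, and the change 0.01.

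Saa3, an acute-phase apolipoprotein, was at 758, 183, 67.6 and 98.8 CPM with H-CM and 10534, 7561, 8651 and 7871 CPM with TME-CM at 12 h. At 24 h Saa3 was at 1739, 378, 213 and 262 CPM with H-CM and 19458, 16115, 17044 and 13348 CPM with TME-CM. The TME-CM libraries of 24 h were all higher than those of 12 h, the H-CM libraries of both times overlapped, and the change of effect was -0.30 ± 1.07. Timp1, an inhibitor of matrix metalloproteinases, was at 225, 100.3, 109.6 and 113 CPM with H-CM and 1377, 742, 892 and 1249.8 CPM with TME-CM at 12 h. At 24 h Timp1 was at 279, 104, 94.7 and 111 CPM with H-CM and 1255, 826, 865 and 1151 CPM with TME-CM. Its level in TME-CM EGCs overlapped between the times, and the change was -0.17 (95% interval -1.15 to 0.82).

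Of the chemokines, Ccl2, which attracts monocytes, was at 517, 373, 232 and 349 CPM with H-CM and 1404, 1149, 1829 and 2907 CPM with TME-CM at 12 h. At 24 h Ccl2 was at 541, 185, 105 and 151 CPM with H-CM and 1302, 999, 1057 and 1101 CPM with TME-CM. TME-CM libraries were higher than H-CM libraries at both times, and the change of effect was -0.13 ± 0.60. Cxcl1, a ligand of the neutrophil receptor CXCR2, was at 73.7, 32.5, 24.9 and 23.7 CPM with H-CM and 419, 249.6, 374 and 641 CPM with TME-CM at 12 h. At 24 h Cxcl1 was at 38.4, 11.7, 8.19 and 12.2 CPM with H-CM and 264, 169, 189 and 299 CPM with TME-CM. The media did not overlap at either time, each medium's libraries of 12 h and 24 h overlapped, and the change was 0.25 ± 0.65. The interferon-inducible Cxcl10 was at 31.7, 8.47, 9.15 and 3.496 CPM with H-CM and 40.1, 177, 262 and 214 CPM with TME-CM at 12 h. At 24 h Cxcl10 was at 10.6, 7.24, 4.03 and 2.21 CPM with H-CM and 23.3, 70.1, 71.9 and 77.8 CPM with TME-CM. All TME-CM libraries lay above all H-CM libraries at both times, with TME-CM replicate 1 the lowest of its group at each. The change for Cxcl10 was -0.52, with an interval of -2.64 to 1.61 that holds both a loss and a gain of effect.

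Il6, the cytokine interleukin 6 (chr5:30013114-30019981), was at 4.405, 0.7698, 0 and 0.953 CPM with H-CM and 42.1, 35.6, 41.5 and 59.6 CPM with TME-CM at 12 h. At 24 h Il6 was at 3.47, 1.94, 0.356 and 0 CPM with H-CM and 25.01, 10.4, 10.3 and 11.5 CPM with TME-CM. The 4 TME-CM libraries of 24 h lay below the 4 of 12 h, and H-CM libraries stayed at or under 4.40 CPM. The effect was 4.98 ± 0.67 at 12 h and 3.22 ± 0.65 at 24 h, and its change -1.76 ± 0.95 had an unadjusted p of 0.0811 by edgeR and an interval of -3.76 to 0.24. Without both H-CM replicate 1 libraries the change was -2.10, with an unadjusted p of 0.0342, also not past the adjusted threshold. Without only the one of 12 h it was -2.86, and without only the one of 24 h -0.99. The number of Il6-producing cells and the amount of RNA per cell cannot be told apart in bulk RNA, and this holds for every gene below.

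Chil1, a chitinase-like secreted protein, was at 2.06, 0.192, 0 and 0.159 CPM with H-CM and 19.1, 6.51, 17.4 and 10.6 CPM with TME-CM at 12 h. At 24 h Chil1 was at 1.301, 0.5296, 0.237 and 0 CPM with H-CM and 30.04, 39.8, 33.5 and 15.4 CPM with TME-CM. TME-CM libraries of 24 h were the highest apart from one that fell within the range of 12 h, and the change was 0.99 ± 1.07 (-0.02 without both H-CM replicate 1 libraries). Of the genes lower with TME-CM, Ntsr1, the neurotensin receptor, was at 14.4, 42.7, 33.8 and 40.2 CPM with H-CM and 8.78, 7.81, 14.1 and 11.97 CPM with TME-CM at 12 h. At 24 h Ntsr1 was at 24.3, 40.96, 50.2 and 43.6 CPM with H-CM and 8.34, 13.7, 11.2 and 12.8 CPM with TME-CM. The media did not overlap at either time. Its effect was -1.61 at 12 h and -1.80 at 24 h, with a change of -0.19 ± 0.43. Sparcl1, a secreted matricellular protein, was at 474, 752, 621 and 500.0 CPM with H-CM and 403, 438, 505 and 276 CPM with TME-CM at 12 h. At 24 h Sparcl1 was at 353, 689.7, 895 and 575 CPM with H-CM and 280.1, 272, 337 and 134 CPM with TME-CM. The media overlapped at 12 h and not at 24 h. It was called lower at 24 h (-1.30 ± 0.27, adjusted p = 0.00947) and not at 12 h (-0.53 ± 0.27, adjusted p = 0.376), and the difference between these effects was -0.76 (95% interval -1.56 to 0.03, unadjusted p = 0.059). Without both H-CM replicate 1 libraries it was -0.87 (unadjusted p = 0.0253), also not past the adjusted threshold.

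**Figure D2:**
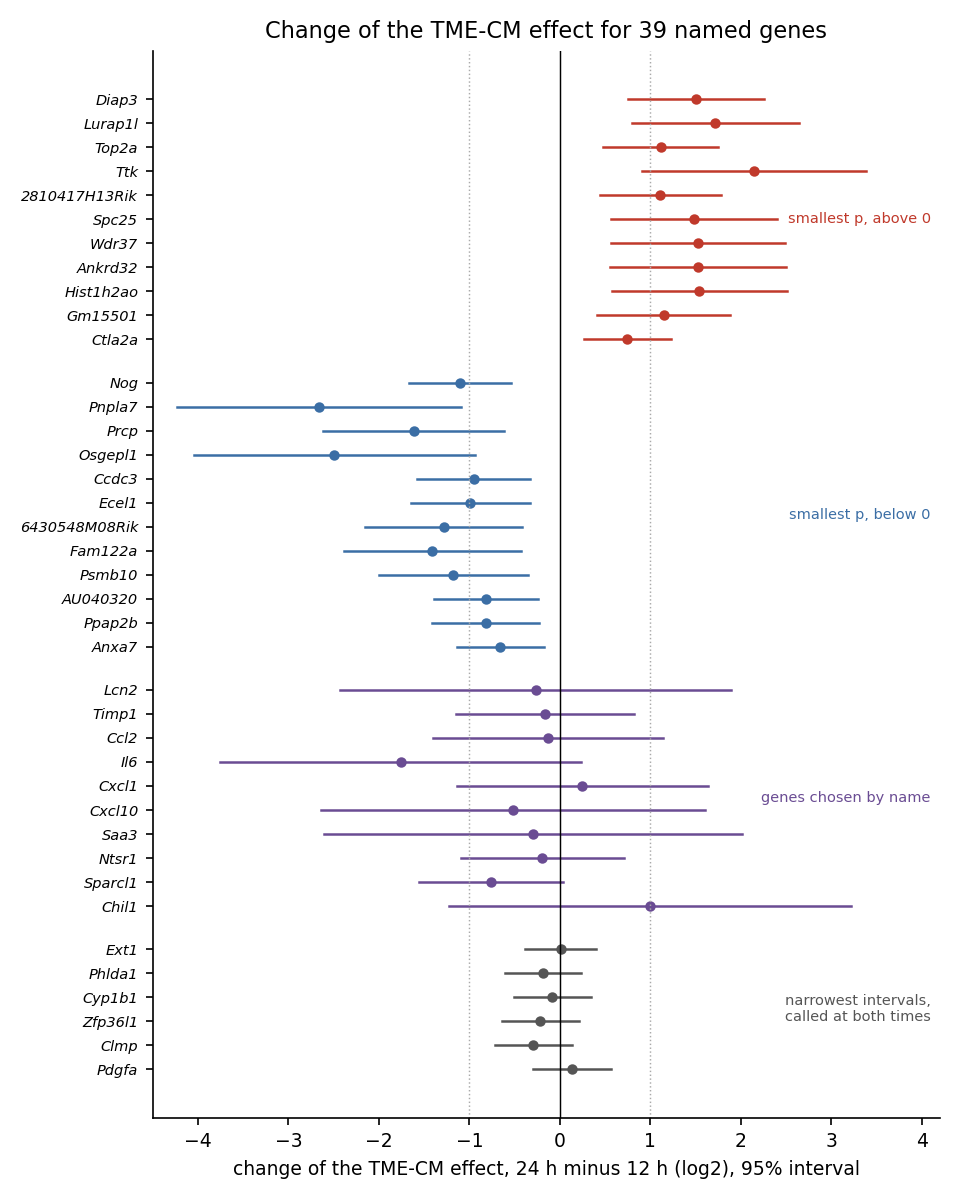
Change of effect (points, log2) with its 95% interval (lines) for 39 genes, with dotted lines at 1 and -1. The 23 genes in the upper blocks were picked for the smallest p-values, so their intervals exclude 0 by selection, while the intervals of all 16 genes in the lower blocks include 0.

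The 11 genes described here from those above 0 with the smallest p-values did not pass the test and were ranked by this contrast, so their values are a description. Of these, 8 rose between 12 h and 24 h in TME-CM EGCs (Diap3, Lurap1l, Top2a, Ttk, 2810417H13Rik, Spc25, Ankrd32 and Hist1h2ao), beside 0.409% of all genes. None was called in H-CM EGCs, beside 0% of all genes. Ranking by this contrast favors genes that rose with TME-CM and not with H-CM, so these counts are partly set by the choice. Of the 11 genes, 1, Top2a, belongs to the cell cycle list described below. Top2a, DNA topoisomerase II alpha, which untangles replicated chromosomes (chr11:98992943-99024189), was at 109, 76.2, 85.4 and 102 CPM with H-CM and 74.7, 57.3, 77.9 and 67.8 CPM with TME-CM at 12 h. At 24 h Top2a was at 181, 164, 146 and 161 CPM with H-CM and 272, 136, 264 and 386 CPM with TME-CM. At 12 h the media overlapped, and at 24 h 3 of 4 TME-CM libraries lay above all H-CM libraries, with replicate 2 below them. The effect was -0.42 ± 0.22 at 12 h and 0.70 ± 0.22 at 24 h, neither called, and the change was 1.12 ± 0.31 (unadjusted p = 0.0014).

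Diap3, a formin that builds actin filaments and acts in cytokinesis (chr14:86655367-87141235), had the smallest p of all genes. It was at 11.7, 17.1, 14.5 and 17.95 CPM with H-CM and 6.98, 6.08, 7.59 and 8.98 CPM with TME-CM at 12 h. At 24 h Diap3 was at 19.5, 19.1, 15.9 and 23.8 CPM with H-CM and 31.6, 17, 25.4 and 31.7 CPM with TME-CM. TME-CM was below H-CM in every library at 12 h, where the effect was called (-1.05 ± 0.27, adjusted p = 0.0288), and at 24 h the groups overlapped (0.46 ± 0.25). The change was 1.51 ± 0.36 with an unadjusted p of 0.000379 by edgeR.

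The mitotic kinase Ttk was at 5.58, 8.66, 19.3 and 8.898 CPM with H-CM and 7.65, 0.868, 5.36 and 2.99 CPM with TME-CM at 12 h. At 24 h Ttk was at 16.9, 13.9, 9.02 and 9.39 CPM with H-CM and 23.4, 15.3, 21.9 and 31.3 CPM with TME-CM. Both times showed overlap between the media, and the change was 2.15 ± 0.60, or 1.70 without H-CM replicate 3 of 12 h. Spc25, a subunit of the kinetochore complex that holds microtubules, was at 14.1, 10.2, 33.6 and 17.3 CPM with H-CM and 4.73, 11.3, 9.82 and 11.97 CPM with TME-CM at 12 h. At 24 h Spc25 was at 29.3, 24.7, 24.7 and 26.5 CPM with H-CM and 29.6, 33.99, 36.1 and 47.1 CPM with TME-CM. There was overlap at 12 h, where H-CM replicate 3 was the highest H-CM library for both genes, and at 24 h all TME-CM libraries lay above all H-CM libraries for Spc25. Its change was 1.49 ± 0.44, or 1.07 without H-CM replicate 3 of 12 h.

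2810417H13Rik, also named Pclaf, encodes a factor that binds the replication clamp PCNA and was at 31.1, 29.4, 53.4 and 39.6 CPM with H-CM and 18.2, 29.9, 22.8 and 39.2 CPM with TME-CM at 12 h. At 24 h 2810417H13Rik was at 66.4, 50.3, 59.2 and 71.8 CPM with H-CM and 94.7, 79.2, 88.1 and 117 CPM with TME-CM. At 12 h the media overlapped, at 24 h TME-CM lay above H-CM, and the change was 1.11 ± 0.32. Ankrd32, also named Slf1, a DNA damage response gene, was at 7.64, 9.62, 8.14 and 8.58 CPM with H-CM and 3.83, 3.04, 6.03 and 3.27 CPM with TME-CM at 12 h. At 24 h Ankrd32 was at 9.11, 8.83, 5.81 and 11.05 CPM with H-CM and 10.2, 13.7, 11.6 and 12.5 CPM with TME-CM, without overlap at 12 h, where TME-CM was the lower medium. Its change was 1.53 ± 0.47. Hist1h2ao, a replication-dependent histone H2A gene, was at 78.1, 62.4, 174 and 64.5 CPM with H-CM and 53.8, 63.4, 47.1 and 79.2 CPM with TME-CM at 12 h. At 24 h Hist1h2ao was at 189, 136, 82.1 and 98.9 CPM with H-CM and 183, 257, 166 and 343 CPM with TME-CM. It belongs to a family of near-identical copies, and reads mapping to several loci were discarded, so its level and its change of 1.54 ± 0.46 are uncertain. Without H-CM replicate 3 of 12 h the change was 1.07.

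Ctla2a, a cysteine protease inhibitor, was at 321, 272, 497 and 353 CPM with H-CM and 353, 347, 342 and 359 CPM with TME-CM at 12 h. At 24 h Ctla2a was at 201, 226, 252 and 266 CPM with H-CM and 440.1, 352, 358 and 389 CPM with TME-CM. Overlap was seen at 12 h and not at 24 h, with a called effect of 0.70 at 24 h and a change of 0.74 ± 0.23. Lurap1l was at 12.04, 19.2, 28.5 and 22.2 CPM with H-CM and 6.53, 2.604, 4.24 and 7.35 CPM with TME-CM at 12 h. At 24 h Lurap1l was at 20.8, 16.1, 18.4 and 23.2 CPM with H-CM and 11.3, 22.4, 15.6 and 17.8 CPM with TME-CM. At 12 h TME-CM was below H-CM in every library and the effect was called (-1.95 ± 0.33), while the media overlapped at 24 h (-0.23 ± 0.30), a change of 1.72 ± 0.45.

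The entries Wdr37 and Gm15501 were called at neither time. Wdr37, a WD-repeat protein gene, was at 23.8, 12.7, 20.3 and 16.05 CPM with H-CM and 6.98, 6.94, 15.6 and 8.71 CPM with TME-CM at 12 h. At 24 h Wdr37 was at 14.3, 14.7, 9.25 and 13.8 CPM with H-CM and 17.3, 32.7, 12.5 and 18.7 CPM with TME-CM. The media overlapped at both times, the change was 1.53 ± 0.46, and its exons share 794 bases with an entry on the other strand. Gm15501, a transcribed processed pseudogene, which can share reads with its parent gene and is uncertain for that reason, was at 24.1, 21.2, 21.4 and 21.1 CPM with H-CM and 10.4, 18.2, 12.7 and 17.1 CPM with TME-CM at 12 h. At 24 h Gm15501 was at 16.05, 18.5, 11.3 and 15.5 CPM with H-CM and 27.7, 24.9, 16.1 and 21.1 CPM with TME-CM. All TME-CM libraries of 12 h lay below the H-CM libraries of 12 h, and the change was 1.15 ± 0.35.

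**Figure D3:**
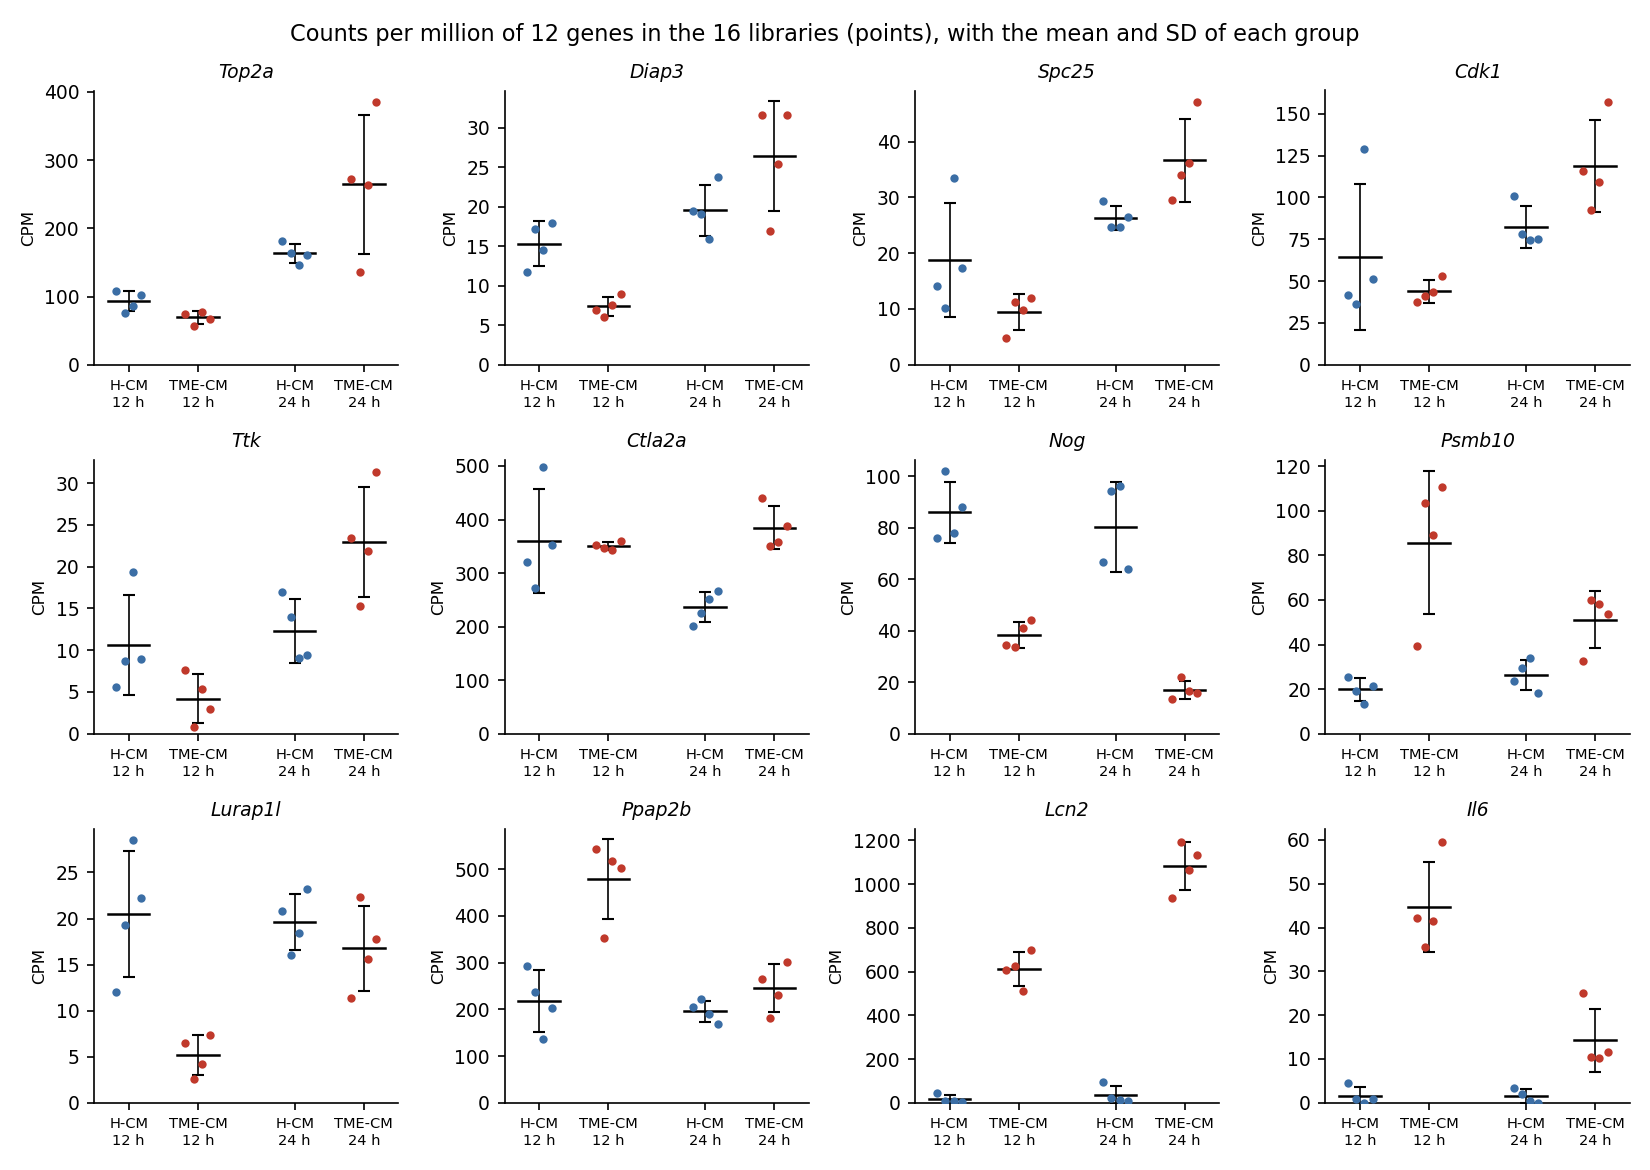
CPM of 12 genes in each of the 16 libraries (blue, H-CM; red, TME-CM), with the mean (bar) and SD (whisker) of the 4 libraries of each group; every y axis starts at 0. For Nog, Ppap2b and Il6 all TME-CM libraries of 24 h lie below those of 12 h while the H-CM libraries overlap, for Top2a every library of 24 h lies above every library of 12 h, and for Lcn2 TME-CM is above H-CM at both times.

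Among genes with the smallest p-values below 0, Nog was called at both times and lay further below H-CM at 24 h. Nog encodes noggin, a secreted antagonist of bone morphogenetic proteins (chr11:89300638-89302332), and was at 76.1, 102, 78.1 and 87.9 CPM with H-CM and 34.4, 33.9, 40.9 and 44.1 CPM with TME-CM at 12 h. At 24 h Nog was at 66.6, 94.1, 96.3 and 64.1 CPM with H-CM and 13.5, 21.97, 16.6 and 15.9 CPM with TME-CM. The 4 TME-CM libraries lay below the 4 H-CM libraries at both times, and those of 24 h lay below those of 12 h. Its effect was -1.16 ± 0.19 at 12 h and -2.27 ± 0.20 at 24 h, and the change -1.10 ± 0.27 had an unadjusted p of 0.000514 and an adjusted p of 1 by edgeR. Between the times Nog fell in TME-CM EGCs (-1.20 ± 0.20, adjusted p = 0.00447), beside -0.09 ± 0.19 with H-CM.

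Psmb10, a catalytic subunit of the immunoproteasome (chr8:105935735-105938444), was at 25.5, 19.1, 13.5 and 21.4 CPM with H-CM and 39.4, 103, 89.1 and 111 CPM with TME-CM at 12 h. At 24 h Psmb10 was at 23.9, 29.3, 34.2 and 18.2 CPM with H-CM and 32.6, 60.1, 58.1 and 53.8 CPM with TME-CM. TME-CM libraries lay above H-CM libraries at 12 h (2.10 ± 0.29, adjusted p = 0.000165), and at 24 h TME-CM replicate 1 fell within the H-CM range (0.92 ± 0.28). The change was -1.18 ± 0.40. Ppap2b, a lipid phosphate phosphatase also named Plpp3, was at 294, 237, 137 and 204 CPM with H-CM and 543, 352, 519 and 504 CPM with TME-CM at 12 h. At 24 h Ppap2b was at 204, 222, 189.7 and 168 CPM with H-CM and 265, 182, 231 and 302 CPM with TME-CM. TME-CM lay above H-CM at 12 h (1.14 ± 0.20, called) and overlapped it at 24 h (0.32 ± 0.20). It fell between the times in TME-CM EGCs (-0.97 ± 0.20, adjusted p = 0.0275), and the change of effect was -0.82 ± 0.29.

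Ecel1, a membrane metalloprotease of neural tissue, was at 27.3, 20.4, 21.1 and 28.8 CPM with H-CM and 32.6, 24.7, 27.02 and 23.9 CPM with TME-CM at 12 h. At 24 h Ecel1 was at 30.6, 24.4, 37.5 and 27.6 CPM with H-CM and 12.1, 19.5, 18.8 and 17.6 CPM with TME-CM. It was called lower at 24 h (-0.84 ± 0.23), where the groups did not overlap, and was at 0.15 ± 0.22 at 12 h. Ccdc3 was at 83.99, 102, 52.6 and 91.5 CPM with H-CM and 111, 113, 87.5 and 67.2 CPM with TME-CM at 12 h. At 24 h Ccdc3 was at 105, 150.2, 163 and 105 CPM with H-CM and 67.2, 90.8, 83.7 and 69.9 CPM with TME-CM. Its media overlapped at 12 h only, neither effect was called, the change was -0.95 ± 0.30, and its exons share 1845 bases with Gm26776 on the other strand, so reads of these cannot be told apart without strand.

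The remaining 7 were not called at either time. Their changes were -2.66 for Pnpla7, a lysophospholipase, -1.62 for the peptidase Prcp, -2.49 for Osgepl1, a mitochondrial tRNA-modifying enzyme, -1.28 for 6430548M08Rik, -1.41 for Fam122a, -0.82 for AU040320 and -0.66 for the annexin Anxa7. Pnpla7 was at 3.52, 2.69, 0.509 and 4.93 CPM with H-CM and 6.08, 12.6, 9.15 and 8.71 CPM with TME-CM at 12 h. At 24 h Pnpla7 was at 3.69, 8.83, 6.999 and 12.7 CPM with H-CM and 5.03, 5.804, 2.94 and 1.65 CPM with TME-CM. TME-CM lay above H-CM at 12 h and overlapped it at 24 h. Prcp was at 4.11, 10.2, 8.899 and 11.6 CPM with H-CM and 9.45, 19.1, 10.5 and 25.04 CPM with TME-CM at 12 h. At 24 h Prcp was at 16.3, 18.9, 13.2 and 25.96 CPM with H-CM and 9.595, 11.2, 10.9 and 11.2 CPM with TME-CM, and TME-CM libraries of 24 h all lay below the H-CM libraries of 24 h. Osgepl1 was at 2.35, 4.62, 1.78 and 4.93 CPM with H-CM and 10.1, 11.3, 8.26 and 7.62 CPM with TME-CM at 12 h. At 24 h Osgepl1 was at 6.94, 4.77, 6.52 and 5.52 CPM with H-CM and 3.78, 0, 3.23 and 3.48 CPM with TME-CM. TME-CM lay above H-CM at 12 h and below it at 24 h.

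Fam122a was at 9.397, 9.62, 4.58 and 9.06 CPM with H-CM and 18.01, 15.6, 10.9 and 19.3 CPM with TME-CM at 12 h. At 24 h Fam122a was at 9.98, 11.8, 12.5 and 20.99 CPM with H-CM and 8.97, 5.39, 12.3 and 12.1 CPM with TME-CM. TME-CM lay above H-CM at 12 h and overlapped it at 24 h. The gene 6430548M08Rik was at 17.3, 16.7, 7.88 and 18.4 CPM with H-CM and 29.9, 22.6, 27.02 and 10.9 CPM with TME-CM at 12 h. At 24 h 6430548M08Rik was at 24.9, 22.8, 24.8 and 19.9 CPM with H-CM and 15.7, 17, 13.7 and 10.99 CPM with TME-CM. Its media overlapped at 12 h, TME-CM lay below H-CM at 24 h, and H-CM replicate 3 of 12 h was the lowest H-CM library of 12 h for both genes. AU040320 was at 27.02, 22.9, 26.95 and 24.9 CPM with H-CM and 36.7, 47.7, 35.7 and 33.2 CPM with TME-CM at 12 h. At 24 h AU040320 was at 35.1, 30.4, 24.1 and 36.5 CPM with H-CM and 28, 27.8, 23.3 and 27.5 CPM with TME-CM, with TME-CM above H-CM at 12 h and overlapping it at 24 h. For Anxa7 the values were 54.3, 37.3, 50.9 and 53.2 CPM with H-CM and 61.9, 72.5, 60.5 and 73.2 CPM with TME-CM at 12 h. At 24 h Anxa7 was at 51.4, 58.1, 51.7 and 50.3 CPM with H-CM and 47.7, 40.2, 46.8 and 48.5 CPM with TME-CM, with all TME-CM libraries above all H-CM libraries at 12 h and below them at 24 h, a difference that did not pass the adjusted test.

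Gene lists were described by counts and medians beside those of all genes, with no test of the list. Among 36 cell cycle genes, none was called for a change of effect, 6 had an unadjusted p under 0.05 (all above 0, beside 2.82% of all genes), 30 lay above 0 and 6 below. Their median change was 0.50, beside 0.01 for all genes, from a median effect of -0.03 at 12 h to 0.46 at 24 h. With unstimulated EGCs as the control the median change was 0.34. Cdk1, the kinase that drives mitosis, had a change of 1.08 ± 0.42 (H-CM replicate 3 of 12 h was at 129 CPM, the other 3 at 36.2 to 51.2 CPM, and the change was 0.51 without it), Birc5 (survivin) of 0.99 ± 0.39 and Prc1, a midzone microtubule bundler, of 0.92 ± 0.38. Leaving out single libraries moved the list's median between 0.29 and 0.67.

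The mean log2 level of the cell cycle list (CPM + 2) was 4.44, 4.36, 4.55 and 4.70 in the H-CM libraries of 12 h, 4.36, 4.46, 4.30 and 4.75 with TME-CM at 12 h, 5.38, 5.06, 5.04 and 5.22 with H-CM at 24 h and 5.62, 5.18, 5.49 and 5.89 with TME-CM at 24 h. Every library of 24 h lay above every library of 12 h, and the media overlapped at both times. The list also rose without conditioned medium. Its median log2 difference from 12 h to 24 h was 0.70 in unstimulated EGCs, 0.73 with H-CM and 1.23 with TME-CM. In TME-CM EGCs, 52 genes (0.409%) rose from 12 h to 24 h and 13 (0.102%) fell, while in H-CM EGCs 0 genes (0%) passed the same test, with 705 at an unadjusted p under 0.05, and DESeq2 called 4 and limma voom 0. The total of 65 was 20 without TME-CM replicate 1 of 12 h, 23 without TME-CM replicate 1 of 24 h and 110 without H-CM replicate 3 of 12 h. It was 2 in the fit of 36 libraries, 32 with a term for the Yam1 share, 64 with a replicate block and 0 with a replicate block within each time. Of the 52 that rose, 13 belong to the cell cycle list. Their median rise was 1.60 in TME-CM EGCs, and the same genes had a median of 0.74 in H-CM EGCs, with 51 of 52 above 0 and 35 of them at an unadjusted p under 0.05. The 13 that fell had a median of -1.25 in TME-CM and -0.62 in H-CM, with 13 of 13 below 0 in both. Both sets were chosen by their calls in TME-CM EGCs, which favors larger changes there than in H-CM EGCs. The difference between the media in these genes is the change of effect, which no gene passed.

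Promoter letters were not used to choose the list. The 250 bases before the RefSeq start (GRCm38.p6) were searched on both strands for CCAAT and for TTTGAA, the core of the CHR element of mitotic genes. Of 29 cell cycle genes with a RefSeq promoter, 23 (79.3%) held CCAAT and 9 (31.0%) TTTGAA, beside 40.4% and 12.6% of the 9632 tested genes with a promoter. A match is a run of letters, not a shown binding site. The promoters of Top2a (chr11:99024190-99024439, minus strand) and Cdk1 (chr10:69352913-69353162, minus strand) are shown because both hold both runs, and capitals mark every CCAAT and TTTGAA on either strand:
Top2a: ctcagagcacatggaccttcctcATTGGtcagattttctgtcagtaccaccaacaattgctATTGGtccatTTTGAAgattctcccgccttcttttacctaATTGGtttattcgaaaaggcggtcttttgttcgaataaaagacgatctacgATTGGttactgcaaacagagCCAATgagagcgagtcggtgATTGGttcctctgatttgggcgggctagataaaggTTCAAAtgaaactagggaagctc
Cdk1: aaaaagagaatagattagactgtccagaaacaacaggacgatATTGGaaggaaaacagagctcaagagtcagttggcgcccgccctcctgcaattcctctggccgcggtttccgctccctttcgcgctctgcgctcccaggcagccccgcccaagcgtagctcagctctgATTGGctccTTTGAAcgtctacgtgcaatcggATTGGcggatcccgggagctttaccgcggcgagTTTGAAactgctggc

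Genes of sterol and fatty acid synthesis also lay mostly above 0. Of 30 tested, 28 were above 0 and 2 below, 3 had an unadjusted p under 0.05, none was called, and the median change was 0.38 (median effects of -0.10 at 12 h and 0.31 at 24 h), or 0.11 with unstimulated EGCs as the control. Msmo1, an enzyme of cholesterol synthesis, was at 137, 119.5, 198 and 141 CPM with H-CM and 122, 118, 102 and 127 CPM with TME-CM at 12 h. At 24 h Msmo1 was at 89.8, 99.7, 94.8 and 105 CPM with H-CM and 112, 139, 118 and 118 CPM with TME-CM. All H-CM libraries of 24 h lay below those of 12 h, the TME-CM libraries of both times overlapped, all 4 TME-CM libraries lay above the H-CM libraries at 24 h, and the change was 0.67 ± 0.23. The sterol demethylase Cyp51 had a change of 0.65 ± 0.24, Fdps, which makes farnesyl diphosphate, of 0.75 ± 0.32, and squalene epoxidase Sqle of 0.51 ± 0.26. Of 19 with a RefSeq promoter, 16 (84.2%) held CCAAT, and the sterol response letters TCACNCCAC were in 1 of 19 (5.26%), beside 1.25% of all.

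**Figure D4:**
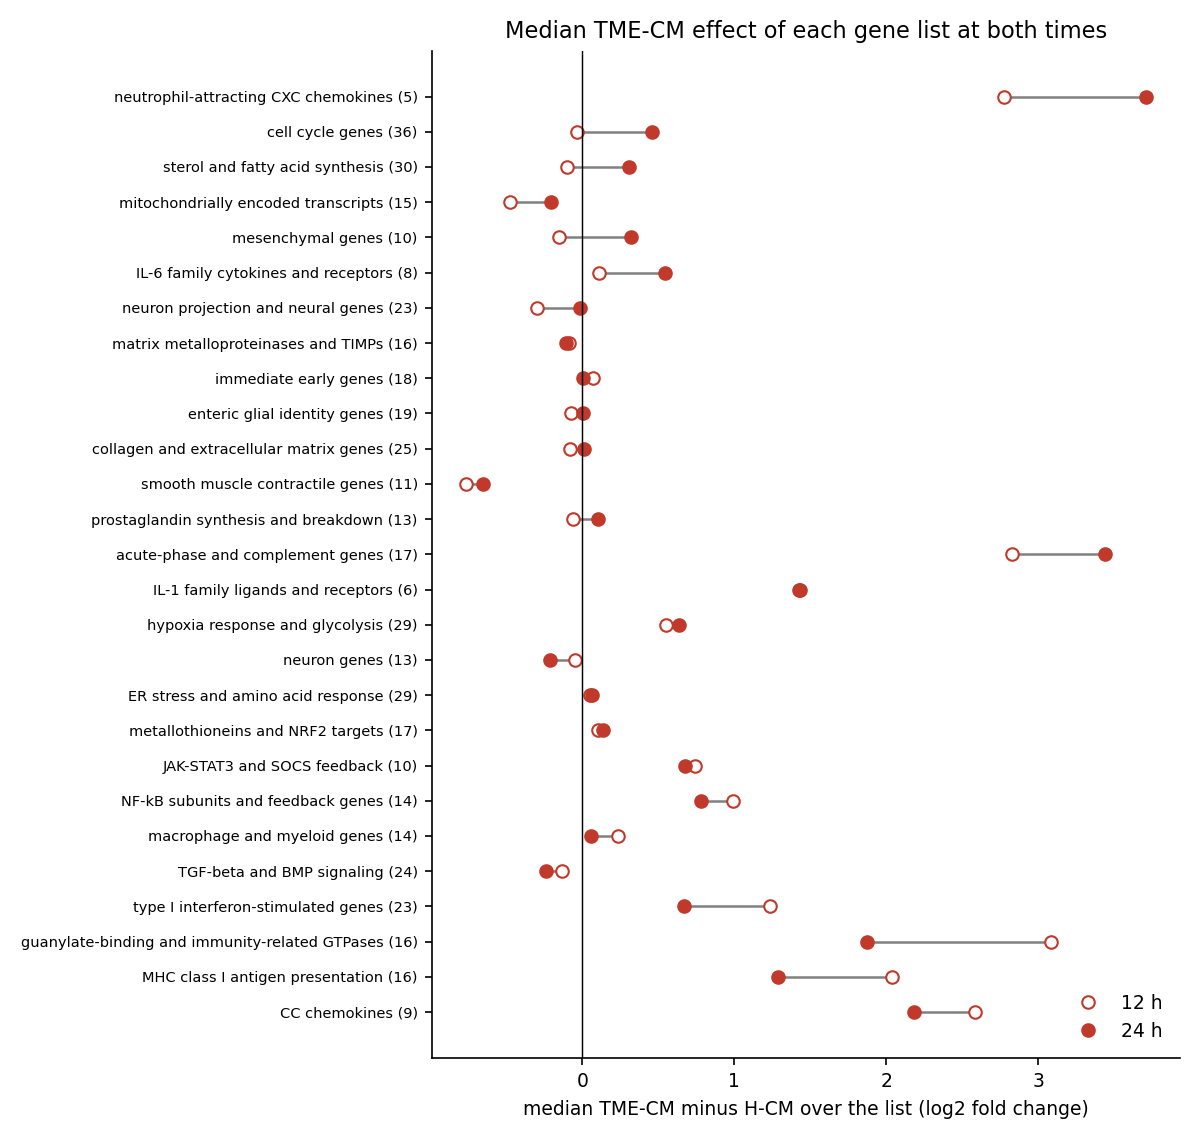
Median TME-CM effect (log2, against H-CM) of each gene list at 12 h (open) and 24 h (filled), with the number of genes tested in parentheses, ordered by the median change of effect. Acute-phase genes and CXC chemokines lie furthest to the right at 24 h, and the GBP, MHC class I and CC chemokine lists have lower medians at 24 h than at 12 h.

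In the interferon-inducible lists the median effect was lower at 24 h than at 12 h, with no gene called for a change. Among 16 GBPs and immunity-related GTPases with their regulators, which restrict intracellular pathogens, 10 were called higher at 12 h (beside 1.97% of all genes) and 2 at 24 h (beside 1.51%), both of these at both times. The median effect was 3.08 at 12 h and 1.87 at 24 h, the median change was -0.76, 1 gene lay above 0 and 15 below, 1 had an unadjusted p under 0.05 and none was called. Tgtp1 held no counts in one group, and without it the median was -0.68. Irf1, a transcription factor of the interferon response, was at 43.8, 44.6, 20.8 and 29.6 CPM with H-CM and 69.3, 118, 136 and 109.7 CPM with TME-CM at 12 h. At 24 h Irf1 was at 41.2, 31.95, 46.3 and 32.6 CPM with H-CM and 47.98, 74.2, 94.4 and 81.1 CPM with TME-CM. It was called at both times, and its change was -0.68 ± 0.35 (unadjusted p = 0.0667). All TME-CM libraries lay above all H-CM libraries at both times. Irgm2, a GTPase of this family, was called at 12 h only and had a change of -1.17 ± 0.60.

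Gbp4, the member with the smallest p (0.00323), was at 1.17, 0, 0 and 0 CPM with H-CM and 4.502, 11.3, 18.98 and 18.8 CPM with TME-CM at 12 h. At 24 h Gbp4 was at 1.52, 0.177, 1.54 and 0 CPM with H-CM and 0.786, 1.66, 3.96 and 3.296 CPM with TME-CM. With 3 of 4 H-CM libraries of 12 h at 0, its fitted fold change depends on the prior count and is not given. GBP genes are close paralogs, and with reads of several loci discarded their levels are uncertain. The replicates also differed within this list: its mean log2 level (CPM + 2) was 3.91, 3.07, 2.95 and 2.59 in H-CM and 4.14, 5.29, 5.87 and 5.46 in TME-CM at 12 h, and 3.72, 3.06, 3.14 and 2.69 and 3.65, 4.54, 4.85 and 4.69 at 24 h. Replicate 1 was the highest H-CM and the lowest TME-CM library at both times, and the list's median change moved with these libraries. It was -0.96 without both H-CM replicate 1 libraries, -1.48 without the one of 12 h and -0.51 without TME-CM replicate 1 of 24 h, and it lay below 0 in each of the 16 fits without 1 library.

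Of 11 GBP-list genes with a RefSeq promoter, 9 (81.8%) held the interferon response letters (GAAA, any 2 bases, GAAA) and 6 (54.5%) the gamma-activated letters TTCNNNGAA, beside 3.22% and 7% of all tested genes. The promoter of Irgm2 (chr11:58214727-58214976, plus strand) is shown because it holds both, in capitals, next to each other:
Irgm2: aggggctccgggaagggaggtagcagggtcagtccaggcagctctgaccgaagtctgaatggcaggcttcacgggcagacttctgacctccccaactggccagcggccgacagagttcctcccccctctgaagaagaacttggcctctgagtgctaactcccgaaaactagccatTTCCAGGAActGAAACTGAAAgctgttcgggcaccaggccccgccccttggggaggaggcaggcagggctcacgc
The promoter of Irf1 (chr11:53769764-53770013, plus strand, the first of the 2 listed) holds TTCNNNGAA, in capitals, and not the interferon response letters:
Irf1: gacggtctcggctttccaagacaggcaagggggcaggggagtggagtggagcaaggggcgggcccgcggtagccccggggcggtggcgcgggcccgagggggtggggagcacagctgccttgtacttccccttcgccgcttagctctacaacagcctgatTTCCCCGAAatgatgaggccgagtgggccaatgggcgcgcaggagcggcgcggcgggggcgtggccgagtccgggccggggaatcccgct

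In the 16 genes of MHC class I antigen presentation, 7 were called higher at 12 h (beside 1.97% of all genes) and 3 at 24 h (beside 1.51%), 2 of them at both. The median change was -0.91, or -0.62 without H2-Q4 and H2-Q7, which had at most 3 counts in a group, with 3 genes above 0 and 13 below. H2-T22 had a change of -1.04 ± 0.58, while H2-D1, a classical class I heavy chain, lay on the other side at 0.68 ± 0.44. H2 genes are close paralogs, so single values are uncertain. Without H-CM replicate 1 of 24 h the median was -0.39, and with unstimulated EGCs in place of H-CM it was 0.40, so the direction of this list's median turned with the control. Of 23 type I interferon-stimulated genes, 22 lay below 0 and 1 above, with a median of -0.42, and 0 were called at 12 h or 24 h. The change was -0.84 ± 0.73 for Ifi44 and -1.02 ± 0.94 for Rsad2, the antiviral enzyme viperin. Leaving out single libraries moved the median between -1.02 and -0.02, and H-CM replicate 1 was the highest H-CM library of the list at both times (5.54 against 3.73 to 4.35 at 12 h, 5.18 against 3.91 to 4.36 at 24 h).

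**Figure D5:**
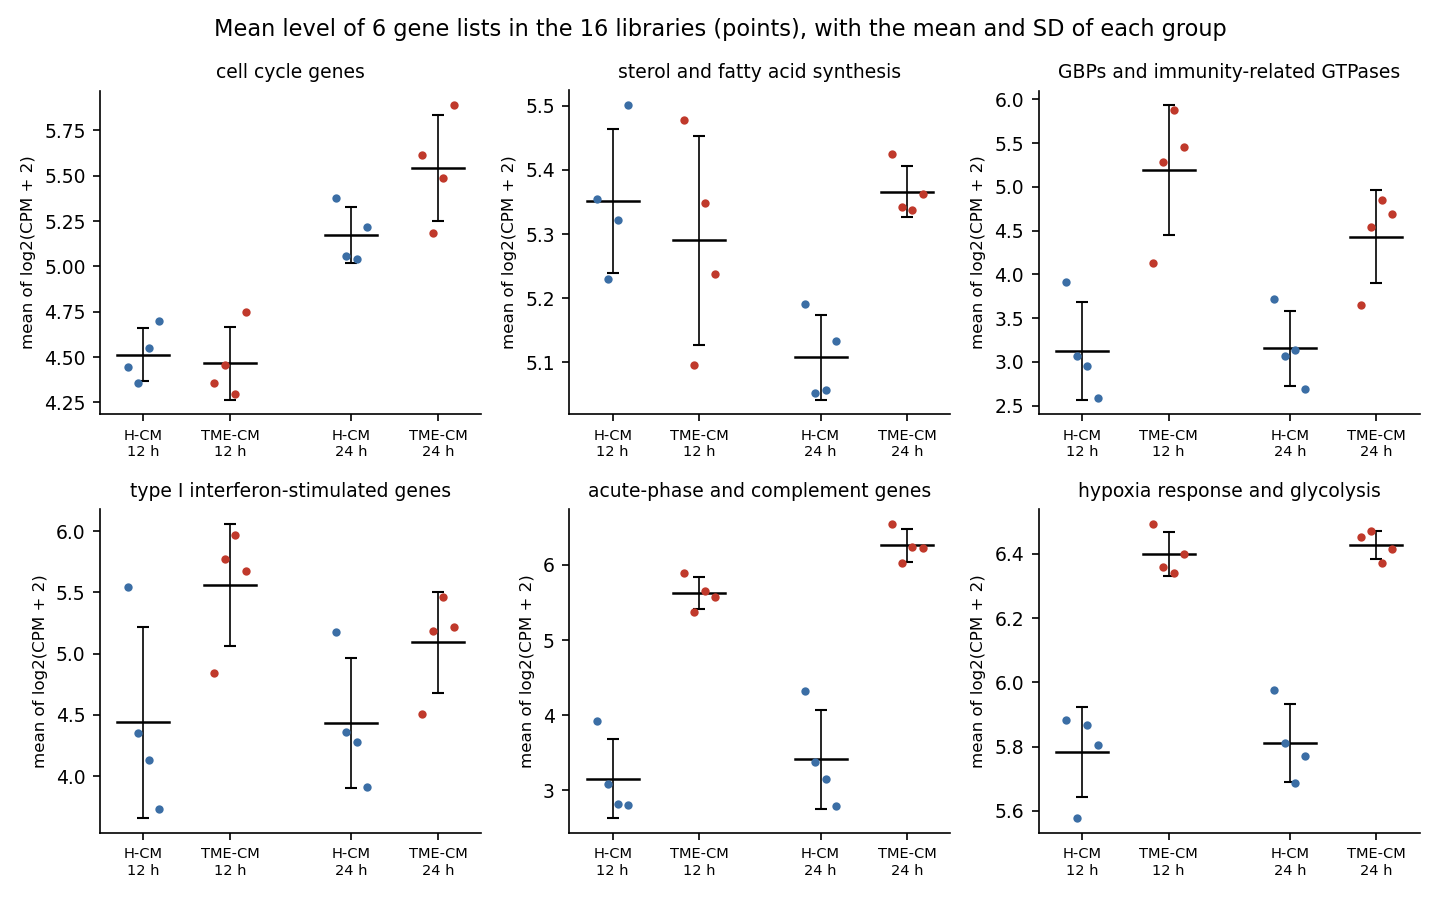
Mean of log2(CPM + 2) over the genes of 6 lists in each library (blue, H-CM; red, TME-CM), with the mean (bar) and SD (whisker) of each group; the y axes do not start at 0. Cell cycle genes were higher at 24 h in both media, and in both interferon lists the first point of each group, replicate 1, was the highest in H-CM and the lowest in TME-CM.

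Acute-phase and complement genes were called at both times. Of 17 tested, 14 were called higher at 12 h (beside 1.97% of all genes) and 15 at 24 h (beside 1.51%), 14 at both, and the median change was 0.01 with 9 above 0 and 8 below. Serping1, the C1 inhibitor, had effects of 1.13 and 1.51 and a change of 0.37 ± 0.27, and Steap4, a metalloreductase, had 5.36 and 3.67 with a change of -1.69 ± 0.99 (-0.40 without H-CM replicate 1 of 24 h). The list's mean log2 level (CPM + 2) was 5.89, 5.37, 5.65 and 5.58 in TME-CM at 12 h and 6.55, 6.02, 6.24 and 6.22 at 24 h, all above the H-CM libraries, which ranged from 2.80 to 3.92 and from 2.80 to 4.33. H-CM replicate 1 was the highest H-CM library at both times. The interval lay within 1 of 0 for 1 of 17 genes, beside 38.0% of all genes. Saa1 and Saa2 are near-identical copies, and Saa2 held no counts in one group, without which the median was 0.00. Without H-CM replicate 1 of 24 h the median was 0.89, and with unstimulated EGCs as the control it was 1.15.

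Hypoxia response and glycolysis genes were measured more tightly. Of 29 tested, 10 were called higher at 12 h (beside 1.97% of all genes) and 11 at 24 h (beside 1.51%), 8 at both, the median change was -0.02, and 24 of 29 intervals lay within 1 of 0. Pgk1, a glycolytic enzyme, had a change of 0.51 ± 0.30 (0.21 without H-CM replicate 3 of 12 h), and Ddit4, a stress-induced inhibitor of mTORC1, of -0.38 ± 0.24. Collagen and extracellular matrix genes had a median of 0.08 with 20 of 25 intervals within 1, and Col3a1 had the smallest p at 0.61 ± 0.29 (unadjusted p = 0.0461), or 0.31 (unadjusted p = 0.17) without H-CM replicate 3 of 12 h.

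The chemokine lists leaned in opposite directions. All 5 tested genes of the CXC chemokine list (Cxcl1, Cxcl2, Cxcl5, Ppbp and Pf4) lay above 0, with a median of 0.92. Of these, 2 were called higher at 12 h (beside 1.97% of all genes) and 3 at 24 h (beside 1.51%), and Cxcl5 had a change of 1.13 ± 1.14. Without H-CM replicate 1 of 12 h this median was -0.06, so its size rested on that library. Of 9 CC chemokines, 7 lay below 0 and 2 above, with a median of -0.99, and without H-CM replicate 1 of 24 h the median was 0.62. Of the 9, 6 were called higher at 12 h (beside 1.97% of all genes) and 3 at 24 h (beside 1.51%). In upstream signaling, the IL-1 receptor Il1r1 was called at both times (1.13 and 1.56) with a change of 0.43 ± 0.33, as was Bcl3, an NF-kB co-regulator (1.54 and 2.21, change 0.67 ± 0.40). Each had the highest change of its list. Of 6 IL-1 family genes, 3 lay above 0 and 3 below, with a median change of -0.01. Of 14 NF-kB subunits and feedback genes, 4 lay above 0 and 10 below, with a median of -0.12. Stat3 was called at 12 h (0.59) and not at 24 h (0.18), with media that overlapped at both times and a change of -0.41 ± 0.23.

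In the TGF-beta and BMP list of 24 genes, to which Nog belongs, 9 lay above 0 and 15 below, and the median was -0.29 (-0.03 without H-CM replicate 3 of 12 h). Bmp4, a ligand that noggin binds, had effects of -1.31 (called lower) at 12 h and -0.45 at 24 h, with a change of 0.86 ± 0.46, and the BMP-responsive Id2 had a change of -0.41 ± 0.21. Of the 19 glial identity genes, 11 lay above 0 and 8 below, with a median of 0.09, and 10 intervals lay within 1.

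Other single genes with low p-values in their list had changes of -2.52 ± 0.90 for neuronal pentraxin Nptx1, 1.44 ± 0.52 for the membrane-bound metalloproteinase Mmp15 and -1.02 ± 0.50 for the cystine transporter Slc7a11, which fell between the times in TME-CM EGCs (-1.81 ± 0.35, adjusted p = 0.0156). Acta2, smooth muscle actin, was at 3100.2, 3684, 2813 and 2589 CPM with H-CM and 2281, 2458, 2251 and 2316 CPM with TME-CM at 12 h. At 24 h Acta2 was at 2668, 3245, 2696 and 2933 CPM with H-CM and 1267, 1869, 1460.0 and 2033 CPM with TME-CM. It was lower with TME-CM at 24 h (-0.80 ± 0.16, adjusted p = 0.00407), the groups did not overlap at either time, and the change was -0.41 ± 0.22. Set against unstimulated EGCs instead of H-CM EGCs, the change of the TME-CM effect on Acta2 was -1.16 ± 0.19 (adjusted p = 0.0149), the 1 call among 13105 genes, with 422 at an unadjusted p under 0.05. The same contrast for H-CM in place of TME-CM gave -0.75 for Acta2, and in unstimulated EGCs Acta2 differed by 0.67 between 12 h and 24 h (adjusted p = 0.0865 by edgeR, not called). Over the 11 smooth muscle contractile genes the medians were -0.41 for TME-CM and -0.52 for H-CM against unstimulated EGCs, and 0.49 in unstimulated EGCs between the times. The 7 smooth muscle markers summed to 2880 to 3070 CPM with TME-CM and 3374 to 4845 CPM with H-CM at 12 h, and to 1803 to 2613 and 3456 to 4262 CPM at 24 h, and Acta2 is one of them. Whether fewer contractile cells or less Acta2 RNA per cell lies behind these values was not tested.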

How the data were processed

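Primary EGCs of 16 libraries were compared (TME-CM or H-CM, 12 h or 24 h, 4 each), with 8 unstimulated libraries of the same times as another control. Groups come from the sample titles. The authors prepared 3′ mRNA libraries (QuantSeq), checked reads with FastQC 0.11.7, removed adapters, aligned to mm10 with HISAT2, handled alignments with SAMtools 1.5, discarded reads mapping to several loci and deposited HT-seq counts per gene without normalization. The annotation, strand setting and any use of molecular identifiers are not given in the sources used here, so intervals and limits for 0 cover counting error only.

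From the deposited counts, genes were kept by filterByExpr (minimum count 10), scaled by TMM, and fitted with one mean per group by quasi-likelihood in edgeR 4.0.16 (robust, R 4.3.3), with Benjamini-Hochberg adjustment over all genes tested, a threshold of 0.05 and two-sided tests. CPM use TMM-scaled totals. The fit was tested on simulated data. The members and gene lists were chosen with earlier results of these data known. Named genes are the 12 per direction with the smallest p (mean of at least 5 CPM, since none passed), 10 genes chosen by name (8 that the study names, Saa3 and Chil1), up to 4 per list with the smallest p, and 6 genes called at both times (at least 50 CPM) with the narrowest interval. One gene that this rule names is not reported here. Alternatives were DESeq2 1.42.0 (size factors, and the Wald test), limma 3.58.1 voom with library weights by time, no filter, other sets of libraries, unstimulated EGCs as control, a replicate block, terms for Yam1, and each library left out. Same-numbered libraries were checked for shared deviations. Of 24 pairs, 6 had a correlation over 0.1, and 12 of 16 libraries correlated best with their own number. The main fit treated the libraries as unpaired, and replicate blocks were run as alternatives. Whether a number marks a shared culture or batch of medium was not tested.

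Positions are from GENCODE vM21 (GRCm38), and promoters from RefSeq (GRCm38.p6). Of 68 named genes, 23 share exon bases with another annotated gene, 16 of them mainly on the opposite strand, and these cannot be told apart without strand. Gene names and promoters were matched by symbol, and 9632 of the 12702 genes tested had a promoter.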

Additional observations from a re-analysis of the deposited data

Results flagged for a closer look

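In 68 named genes, each of the 4 groups was searched for 1 library far from the other 3, by the gap to the nearest library over the group's range (above Dixon's 95% critical value for 4 libraries). Of 272 groups, 27 met it, 19 by a high and 8 by a low library. Chance alone marks about 1 in 20 groups, and the named genes are not independent of each other.

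H-CM 24 h replicate 1 was at 95.4 CPM for Lcn2 (others 8.28 to 20.1 CPM), 279 CPM for Timp1 (others 94.7 to 111 CPM), 38.4 CPM for Cxcl1 (others 8.19 to 12.2 CPM), 1739 CPM for Saa3 (others 213 to 378 CPM) and 101 CPM for Cdk1 (others 74.6 to 78.0 CPM). H-CM 24 h replicate 1 was also at 9.98 CPM for Steap4 (others 1.06 to 1.90 CPM), 41.4 CPM for Cxcl5 (others 3.91 to 6.88 CPM), 20.4 CPM for Bcl3 (others 8.84 to 9.003 CPM) and 301 CPM for Serping1 (others 168 to 175 CPM). H-CM 12 h replicate 1 was at 24.1 CPM for Gm15501 (others 21.1 to 21.4 CPM), 43.8 CPM for Lcn2 (others 5.72 to 10.01 CPM), 225 CPM for Timp1 (others 100.3 to 113 CPM), 758 CPM for Saa3 (others 67.6 to 183 CPM) and 2.06 CPM for Chil1 (others 0 to 0.192 CPM). H-CM 12 h replicate 1 was also at 1.17 CPM for Gbp4 (others 0 CPM). H-CM 12 h replicate 3 was at 174 CPM for Hist1h2ao (others 62.4 to 78.1 CPM), 7.88 CPM for 6430548M08Rik (others 16.7 to 18.4 CPM), 4.58 CPM for Fam122a (others 9.06 to 9.62 CPM) and 129 CPM for Cdk1 (others 36.2 to 51.2 CPM). TME-CM 24 h replicate 1 was at 25.0 CPM for Il6 (others 10.3 to 11.5 CPM), 23.3 CPM for Cxcl10 (others 70.1 to 77.8 CPM) and 107 CPM for H2-D1 (others 236 to 259 CPM). TME-CM 24 h replicate 2 was at 0 CPM for Osgepl1 (others 3.23 to 3.78 CPM) and 40.6 CPM for Il1r1 (others 63.7 to 66.6 CPM). H-CM 24 h replicate 3 was at 9.25 CPM for Wdr37 (others 13.8 to 14.7 CPM). TME-CM 24 h replicate 3 was at 23.3 CPM for AU040320 (others 27.5 to 28.0 CPM). TME-CM 12 h replicate 2 was at 43.0 CPM for Birc5 (others 15.8 to 19.4 CPM).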

How the results depend on the processing

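The change of effect passed in 0 genes under the main analysis and under every alternative run with H-CM as the control, including each of the 16 fits without 1 library, and in 1 gene (Acta2) with unstimulated EGCs as the control. Genes at an unadjusted p under 0.05 numbered 59 (fit of 36 libraries) to 1014 (no filter, 21943 genes tested).

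The 415 genes called at 12 h became 652 with DESeq2's Wald test, 156 with limma voom, 81 in the fit of 36 libraries and 238 to 469 without single libraries (254 without H-CM replicate 2 and 238 without TME-CM replicate 4 of 12 h). The 313 genes at 24 h became 485, 830, 71 and 165 to 445 (197 without TME-CM replicate 1, 178 without H-CM replicate 2 and 165 without H-CM replicate 3 of 24 h). The 65 genes between the times in TME-CM became 112 with no filter, 152 with DESeq2, 2 in the fit of 36 libraries, 32 with a term for the Yam1 share and 20 to 110 without single libraries. The 0 genes in H-CM became 6 with no filter, 4 with DESeq2, 1 in the fit of 24 libraries and 0 to 1 without single libraries. The causes were not tested.

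A replicate block gave 0 genes for the change of effect, 474 at 12 h, 361 at 24 h, 64 in TME-CM and 0 in H-CM. A replicate block within each time gave 0, 301, 243, 0 and 0. Same-numbered libraries had correlations of -0.12 to 0.21 between their deviations. Of 16 libraries, 12 correlated best with their own number, a hint from the data and not from the design. The mean log2 level (CPM + 2) of 14 macrophage and myeloid genes was higher in replicates 1 and 2 than in 3 and 4 in every group. At 12 h it was 4.05, 4.08, 3.00 and 2.66 with H-CM and 3.98, 4.44, 3.10 and 3.20 with TME-CM. At 24 h it was 3.69, 4.02, 3.03 and 2.36 with H-CM and 3.46, 4.30, 3.15 and 2.78 with TME-CM. This list was picked after seeing the data.

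Some changes of effect turned sign. With unstimulated EGCs as the control they were 1.26 for Lcn2, -1.10 for Cxcl1, 1.15 for Saa3, -0.093 for Ext1, 0.080 for Cyp1b1, 0.21 for Zfp36l1 and -0.015 for Fdps. Without both H-CM replicate 1 libraries (chosen after seeing the data) they were 0.0062 for Lcn2, 0.0081 for Timp1, 0.41 for Ccl2 and -0.016 for Chil1. Without libraries of over 30% Yam1 (also chosen after seeing the data) they were -0.32 for Cxcl1, -1.17 for Chil1 and -0.0074 for Cxcl5. The replicate block within time gave 0.011 for Lcn2 and 0.21 for Ccl2, and limma voom 0.20 for Ccl2. Without single libraries the values ran from -1.32 to 1.06 for Lcn2, -0.51 to 0.35 for Timp1, -0.38 to 0.62 for Ccl2, -0.25 to 1.01 for Cxcl1, -1.54 to 0.89 for Saa3, -0.37 to 0.047 for Ntsr1, -0.78 to 1.76 for Chil1, -0.075 to 0.054 for Ext1 and -0.059 to 2.62 for Cxcl5. Without a sign change, but by over 1.5 times, they ran from -1.39 to -0.14 for Cxcl10, 0.57 to 1.09 for Prc1, -1.57 to -0.47 for Ifi44, -2.15 to -0.60 for Rsad2, -1.37 to -0.67 for H2-T22, 0.52 to 1.09 for H2-D1, 0.50 to 1.08 for Bcl3, 0.25 to 0.59 for Il1r1, 0.27 to 0.62 for Serping1 and 0.50 to 1.07 for Bmp4. Libraries with 0 or few counts limit genes such as Osgepl1, Pnpla7 and Gbp4, and the wider spread at 12 h limits every change of effect.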
